A study of Mus musculus with 8 samples.

Results

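A group of 9 genes of hepatic stellate cells and of early liver fibrosis were compared between liver of NZO and B6 mice: Lrat, Pdgfrb, Reln, Hand2, Dcn, Ecm1, Acta2, Timp1 and Tgfb1. They were taken by gene symbol from the array annotation, which names 34836 genes, and correspond to 9 genes and 10 probes, because Ecm1 has 2 probes. No measured value enters the rule by which they were taken, but the list was drawn up with earlier results of these data known. The study compared male mice of the obese and diabetes-prone NZO strain (NZO/HiBomDife) with male mice of the lean B6 strain (C57BL/6) in order to find genes with altered expression between the strains. All mice were 6 weeks old and received a diet with 45% fat, so that the controls had the same diet. RNA of whole liver of 4 mice per strain was hybridised, 1 array per mouse, and the arrays are called here by strain and mouse number (NZO 003, 007, 009 and 011, B6 009, 010, 011 and 015). The 4 mice of a strain are separate animals of an inbred strain, and strain differences in any tissue compartment enter the values.

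Hepatic stellate cells lie between the sinusoidal endothelium and the hepatocytes and store most of the vitamin A of the body as retinyl esters in lipid droplets. In injured liver they lose these droplets, become contractile myofibroblasts under the influence of platelet-derived growth factor (PDGF) and transforming growth factor beta (TGF-beta), and produce most of the scar matrix. In the list, Lrat, Reln, Hand2, Ecm1 and Dcn are markers of resting or quiescent cells, Pdgfrb is the receptor that marks the lineage and drives its proliferation, Acta2 marks the contractile state, and Tgfb1 and Timp1 belong to the fibrogenic response.

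The probes consist of 60 bases and most of them lie near the 3′ end of a transcript. The sequences of 3 probes in coding sequence are shown, since these define what was measured for the matrix genes and for the growth factor. All are given 5′ to 3′ as in the scanner files, with capitals for the stop codon in the Dcn probe.
Ecm1, starting at base 883 of the transcript: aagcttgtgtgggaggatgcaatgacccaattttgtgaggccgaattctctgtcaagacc
Dcn, starting at base 1230: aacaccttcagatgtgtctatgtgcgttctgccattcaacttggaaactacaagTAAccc
Tgfb1, starting at base 1955: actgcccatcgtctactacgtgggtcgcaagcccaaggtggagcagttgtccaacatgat
The Dcn probe covers the last codons of decorin and 3 bases after the stop. The 60 bases of this Ecm1 probe extend over 310 bases of mm9 (chr3:95540094-95540403), so that it spans a splice junction, whereas the second Ecm1 probe starts at base 1791 of the transcript and lies at its 3′ end.

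All values of single probes are log2 processed signals minus the 75th percentile of the array, so that 0 is the signal of a bright probe and 1 unit is a doubling. The 75th percentile was a signal of 119, 124, 142 and 119 on the NZO arrays and 156, 140, 159 and 136 on the B6 arrays in the order given above, and this order is kept in all sentences with 8 values. The flags of the scanner software put 50.4 to 60.1% of the spots of an array well above background. All 10 probes passed the filter for fitting, and 9 of them were above background on all 8 arrays. Timp1 was above background on all B6 arrays but only on NZO 003 and NZO 007.

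The mean level was lower in NZO than in B6 for all 10 probes (Timp1 was at 0.0035 with the normexp background correction and Ecm1 at the splice junction at 0.11 on slide 1), with log2 differences between -0.18 for Acta2 and -1.00 for Pdgfrb and a median of -0.38. This median was -0.21 with normexp, -0.19 with slide as a fixed term and -0.61 without scaling. With normexp Hand2, Reln and Tgfb1 had differences of -0.16, -0.17 and -0.16. Normexp adds an offset of 50 to each signal, which makes log2 differences of dim probes smaller. The slide term takes the strain difference from slide 1 alone, that is NZO 003 against B6 010 and B6 015. Calls lost with this term cannot separate an effect of slide from the smaller number of arrays. The median over all 27639 fitted probes was 0.01. Only Pdgfrb passed the thresholds of an unadjusted p of 0.05 and a log2 difference of 0.7, and it was lower in NZO. Among all fitted probes 7.08% were lower in NZO by the same thresholds and 5.16% were higher, and 5.28% and 4.33% also passed an adjusted p of 0.05 (limma, Benjamini-Hochberg). The higher probes made up 42.2% of all called probes, but 20.7% without scaling of the arrays and 28.4% in the deposited table, where the median over all probes moved to -0.22 and -0.15. The 2 strains did not overlap for 3 of the 10 probes, Pdgfrb, Hand2 and Dcn, all lower in NZO. Of all fitted probes 10.7% were lower without overlap and 11.3% were higher without overlap.

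**Figure D1:**
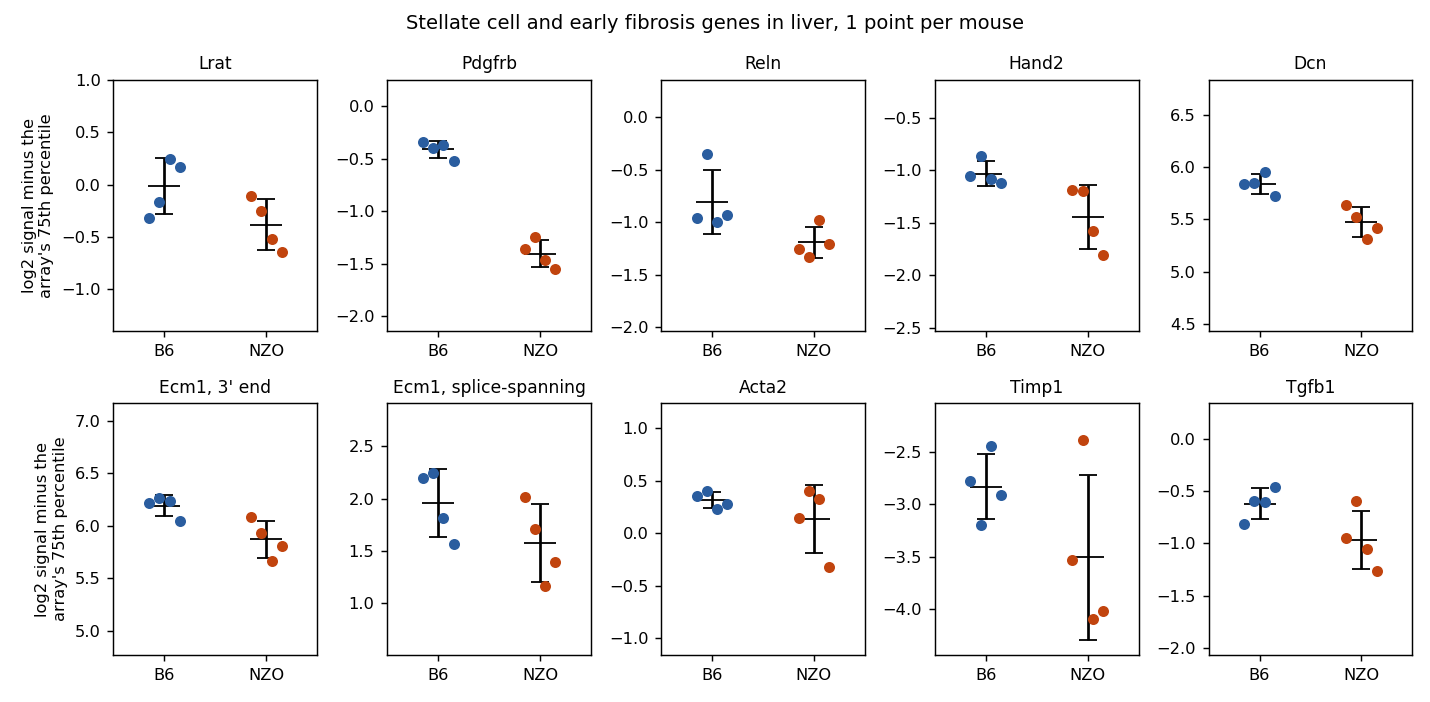
Level of each of the 10 probes in each liver (log2 signal minus the 75th percentile of the array; points are mice, horizontal bars are means and error bars the SD of 4 mice). All panels span the same range of log2 units, and the strains are fully separated for Pdgfrb, by a narrow margin for Hand2 and Dcn, and not for the other probes.

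Pdgfrb, the receptor for PDGF-B on stellate cells and pericytes, showed the largest difference. Its gene lies on chromosome 18 (61045127 to 61085067 on GRCm38.p6). The levels were -1.36, -1.25, -1.46 and -1.55 in NZO and -0.34, -0.40, -0.37 and -0.52 in B6. Each NZO array was below each B6 array, and the gap between the strains exceeded the spread within either. The mean was -1.40 ± 0.13 in NZO and -0.41 ± 0.08 in B6 (SD, n = 4 each), which is a log2 difference of -1.00 with a standard error of 0.10 and a 95% interval of -1.23 to -0.76. B6 liver had a 1.99-fold higher signal (limma, adjusted p = 0.000357). In whole liver, fewer cells of a type and less RNA per cell cannot be told apart. The 8 arrays came from 5 slides and were scanned on 2 days. The difference was -1.00 on the first day (3 NZO and 2 B6 arrays), -0.89 on the second day (1 NZO and 2 B6 arrays) and -0.90 on slide 1, which is the only slide with both strains. With the normexp background correction, the difference was -0.53 (adjusted p = 0.000991), below the limit of 0.7, so that the call was lost at its size and not at its p-value. With slide as a fixed term the difference is that of slide 1, -0.90, where NZO 003 was the only NZO array.

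Lrat, which makes the retinyl esters of the lipid droplets, is the most specific marker of the quiescent cell in the list (chromosome 3, 82892582 to 82903974). It was measured at -0.11, -0.26, -0.52 and -0.64 in NZO and -0.32, -0.16, 0.25 and 0.17 in B6. The 2 highest values were those of B6 011 and B6 015 and the 3 lowest included B6 009, so the strains overlapped. The log2 difference of -0.37 ± 0.17 (SE) did not pass the test (limma, adjusted p = 0.213), and its 95% interval of -0.76 to 0.03 includes both no difference and a difference of the limit of 0.7. On slide 1 the difference was -0.11.

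Reln encodes the secreted glycoprotein reelin, which is made in liver by stellate cells (chromosome 5, 21884454 to 22344705). The levels were -1.25, -1.33, -0.98 and -1.20 in NZO and -0.96, -0.35, -1.00 and -0.93 in B6. B6 010 stood 0.58 above the next array, and of the other B6 arrays only B6 011 lay within the range of NZO. The difference of -0.38 ± 0.17 (SE) had an unadjusted p of 0.048 but did not reach the limit of 0.7 or an adjusted p of 0.05 (limma, adjusted p = 0.175), and it was -0.23 without B6 010 and -0.61 on slide 1.

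Hand2, a transcription factor that maintains the quiescent state (chromosome 8, 57320983 to 57324517), was at -1.18, -1.20, -1.58 and -1.81 in NZO and -1.05, -0.86, -1.09 and -1.12 in B6. The strains did not overlap, but NZO 003 and NZO 007 were only 0.06 and 0.07 below the lowest B6 array, whereas NZO 009 and NZO 011 were 0.45 and 0.69 below it. The log2 difference was -0.41 ± 0.16 (SE, limma, adjusted p = 0.137). It was -0.53 on the first scan day and -0.13 on the second day, where NZO 007 was the only NZO array, and -0.19 on slide 1.

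Dcn encodes decorin, a small leucine-rich proteoglycan that binds collagen fibrils and TGF-beta (chromosome 10, 97479500 to 97518163). The levels were 5.64, 5.52, 5.31 and 5.42 in NZO and 5.84, 5.85, 5.96 and 5.72 in B6, far above background. All NZO arrays were below all B6 arrays, with 0.08 between the nearest ones. The log2 difference was -0.37 ± 0.11 (SE), with a 95% interval of -0.61 to -0.13 (limma, adjusted p = 0.0540). The ratio of the B6 to the NZO mean was 1.29, and the log2 difference was -0.33 and -0.37 on the 2 scan days and -0.14 on slide 1. It was larger with normexp (-0.47, adjusted p = 0.00846, limma), quantile normalization (-0.46, 0.0109), no scaling (-0.60, 0.0190) and in the deposited table (-0.64, 0.00636), and the adjusted p was between 0.00636 and 0.678 over all alternatives.

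Ecm1 encodes a secreted matrix protein that holds TGF-beta in its latent form (chromosome 3, 95734147 to 95739876). Its 3′ probe was at 6.08, 5.93, 5.67 and 5.81 in NZO and 6.22, 6.27, 6.24 and 6.05 in B6, and the probe across the splice junction was at 2.02, 1.71, 1.17 and 1.40 in NZO and 2.20, 2.25, 1.81 and 1.57 in B6. Only NZO 003 reached into the range of B6 with the first probe, and NZO 003 and NZO 007 did with the second. The differences of -0.32 ± 0.12 and -0.38 ± 0.22 (SE) were alike in size, and neither passed the thresholds (limma, adjusted p = 0.115 and 0.312). On slide 1 they were -0.07 and 0.11, so that the sign of the second probe turned within this slide, which holds 1 NZO and 2 B6 arrays. Without NZO 009 the second probe gave -0.25.

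Acta2, the smooth muscle actin that marks myofibroblasts and vessel walls (chromosome 19, 34240336 to 34255585), is printed in 10 spots on each array. The means over the spots were 0.15, 0.40, 0.32 and -0.33 in NZO and 0.35, 0.40, 0.23 and 0.28 in B6. The NZO arrays 003, 007 and 009 were close to the B6 arrays and NZO 011 was 0.47 below the next array. The spots of NZO 011 had an SD of 0.11, so this array was low in all its spots and not in a few. The log2 difference of -0.18 ± 0.16 (SE) did not pass the test (limma, adjusted p = 0.523, 95% interval -0.55 to 0.20), and without NZO 011 it was -0.02. The difference was -0.29 on the first scan day and 0.11 on the second.

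Tgfb1, the central fibrogenic growth factor (chromosome 7, 25687002 to 25705077), is also printed in 10 spots. Its levels were -0.95, -0.60, -1.06 and -1.27 in NZO and -0.82, -0.60, -0.61 and -0.46 in B6. NZO 007 was level with B6 010 and B6 011, and the other NZO arrays were below all B6 arrays. The difference was -0.35 ± 0.15 (SE, limma, adjusted p = 0.191), with -0.56 on the first scan day and 0.11 on the second day.

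Timp1, an inhibitor of matrix metalloproteinases that is induced early in fibrosis (chromosome X, 20870166 to 20874737), was the only one of the 9 genes that was not above background on all arrays. Its levels were -3.53, -2.38, -4.09 and -4.02 in NZO and -2.78, -3.20, -2.44 and -2.91 in B6. NZO 007 was higher than all B6 arrays, and the other NZO arrays were lower than all of them. With all arrays the difference was -0.67 ± 0.37 (SE) and did not pass the test (limma, adjusted p = 0.282). It was -0.83 on the first day and 0.23 on the second, and without NZO 007 it was -1.05 and passed the thresholds (adjusted p = 0.0180). NZO 007 also had a summed leukocyte marker level of 16.4 against 8.92 to 9.63 in the other NZO arrays, most of it from Cd3e, which was at 3.61 there and 2.07 to 2.46 in the other NZO arrays. Its part in the Timp1 value was not tested.

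**Figure D2:**
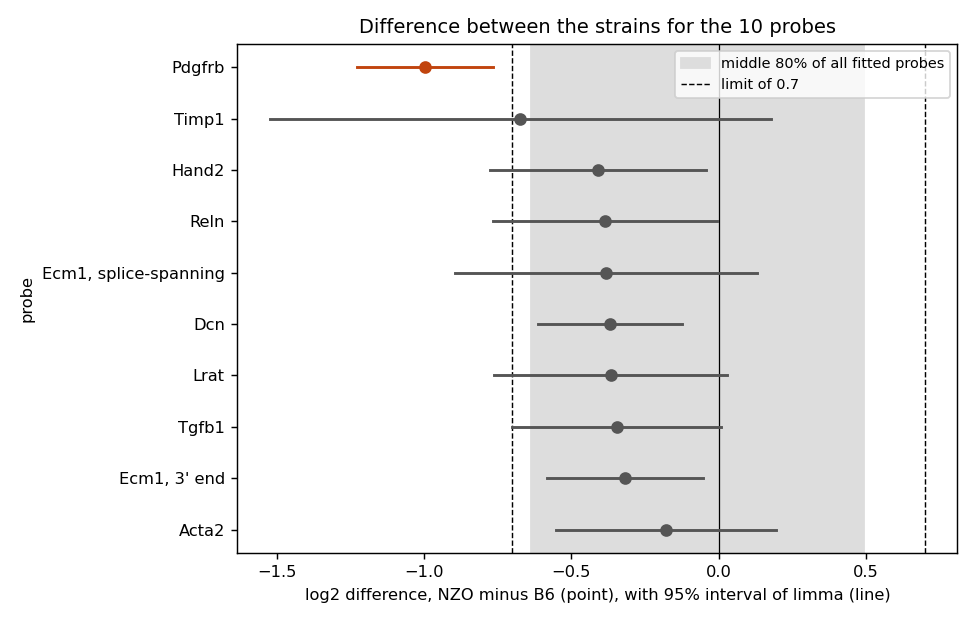
Log2 difference between NZO and B6 for each probe (x axis, points) with the 95% interval of limma (lines); the grey area holds the middle 80% of all fitted probes and dashed lines the limit of 0.7. All 10 points are left of 0 (not so for Timp1 with normexp, at 0.0035), and the interval of Pdgfrb from -1.23 to -0.76 is the only one that lies entirely beyond the limit.

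Within an array, the log2 ratio of Pdgfrb to each of the other 9 probes was lower in NZO than in B6. For Timp1 the change was -0.32, with -0.53 under normexp, -0.68 in the deposited table and -0.51 with scan day as a fixed term. Without NZO 007 it was -0.0005, and with the mouse number as a replicate block it was 0.29. This block compares only NZO 009 and NZO 011 with B6 009 and B6 011. Apart from Timp1, which was not above background on NZO 009 and NZO 011, the changes lay between -0.59 for the ratio to Hand2 and -0.82 for the ratio to Acta2, with -0.63 for the ratio to Lrat. The arrays of the 2 strains did not overlap in the ratios to Lrat, Hand2, Dcn, the 3′ probe of Ecm1, Acta2 and Tgfb1. With normexp the changes other than that of Timp1 were smaller. They were -0.06 for the ratio to Dcn, -0.14 and -0.16 for the ratios to Ecm1 and between -0.28 for Lrat and -0.39 for Acta2 for the remaining genes. The offset of normexp shrinks the difference of the dim Pdgfrb probe more than those of the brighter Dcn and Ecm1 probes. In the deposited table they were -0.28 for Dcn and -0.38 and -0.36 for Ecm1. The change for Reln was -0.28 with slide as a fixed term and -1.04 with the replicate block. No test was made of these ratios because Pdgfrb was singled out after its values were seen.

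The genes also varied among the mice of a strain. After removal of the strain means, the closest pair over the 8 arrays was Dcn with the 3′ probe of Ecm1 (Pearson's r = 0.94), followed by the 2 probes of Ecm1 (r = 0.92) and by Pdgfrb with Hand2 (r = 0.80). Reln went its own way, with r between -0.59 with Timp1 and 0.18 with Acta2. Lrat followed Tgfb1 (r = 0.68) more than Pdgfrb (r = 0.28). Over all detected genes, Stx3 (r = 0.99), Dbn1 (r = 0.99) and Slc16a9 (r = 0.98) were most like Lrat over these 8 arrays. All correlations are descriptions of 8 arrays that share the scaling of each array.

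The surroundings of these genes were examined with 11 lists of pathway genes, in which each gene is given by its brightest probe. They comprise 122 distinct genes besides the 9, of which 103 were fitted. Of these, 4 were higher in NZO, 20 were lower and the others did not pass the thresholds, and 2 and 16 also passed the adjusted p (limma). Among all 20156 genes tested in the same way, 5.24% were higher and 6.62% lower, and 4.42% and 5.01% passed the adjusted p as well. The median log2 difference was -0.38 in the lists and 0.03 over all genes (-0.14 and 0.04 with normexp, -0.17 and 0.10 with slide as a fixed term, and -0.61 and -0.20 without scaling), and 73.8% of the listed genes were below 0 compared with 46.7% of all genes (84.5% and 74.6% without scaling, and 84.5% and 73.7% in the deposited table). The count of lower genes was 11 with normexp, 9 with slide as a fixed term and 33 without scaling, and it ranged from 16 to 21 with the omission of single mice. The count of higher genes was 2 with normexp, in the deposited table, with the methods' t-test and without NZO 003 or B6 011.

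**Figure D3:**
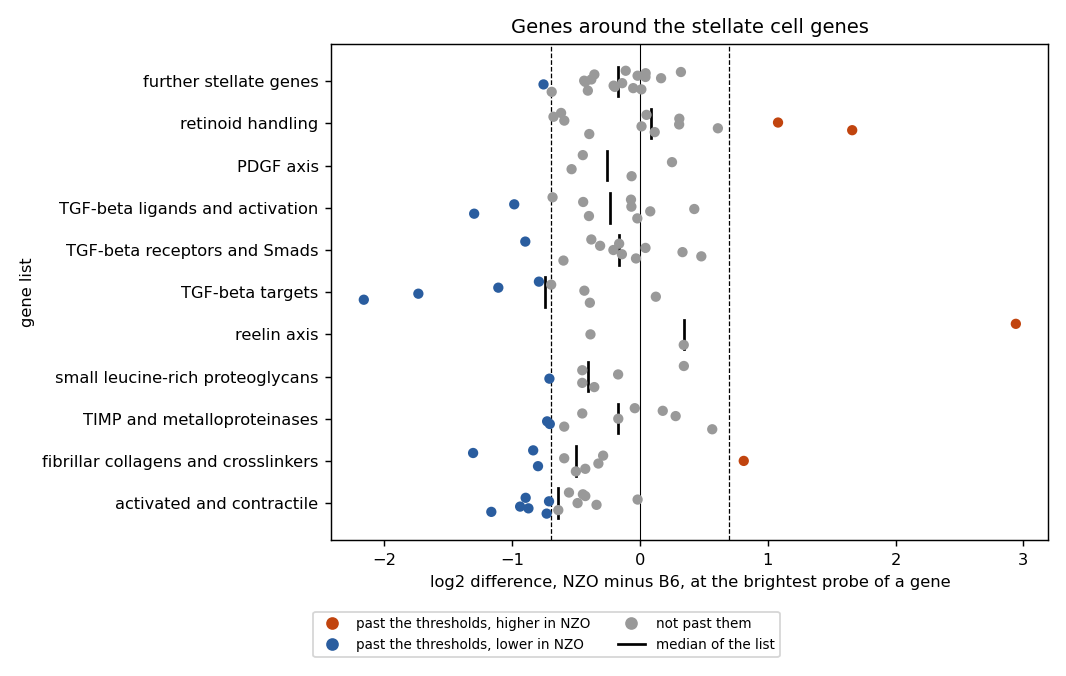
Log2 difference between NZO and B6 (x axis) of the fitted genes of 11 pathway lists (y axis), 1 point per gene, with dashed lines at the limit of 0.7 and black bars at the medians. TGF-beta targets and activated and contractile genes have the lowest medians (-0.74 and -0.64), and Vldlr at 2.94 stands alone on the right.

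Among 19 further stellate cell and pericyte genes, 18 were fitted, of which 1 was lower in NZO and 0 higher, with a median of -0.17. The lower gene was Ednrb, a receptor for endothelin. It was at -1.15, -1.42, -1.25 and -1.59 in NZO and -0.52, -0.32, -0.52 and -1.04 in B6, and the strains were separated, with B6 015 closest to NZO. The log2 difference was -0.76 ± 0.17 (SE, adjusted p = 0.0214, limma), and the second probe gave -0.67. The call was kept under 15 of 19 alternatives and lost with normexp (-0.36), with slide as a fixed term (-0.47) and without NZO 011 or B6 010. The brightest genes of the list that did not pass were the collectin Colec11 (-0.05) and Vipr1, a receptor for vasoactive intestinal peptide (-0.11, and 0.34 with its second probe). Named after their values were seen, the potassium channel subunit Abcc9 (-0.69) and the hepatocyte growth factor gene Hgf (-0.43) did not overlap between the strains but missed the limit of 0.7, and the stellate cell markers Des (-0.21), Cygb (-0.20) and Ngfr (0.17) overlapped. Gfap was above background on only 1 of the 8 arrays.

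In the list of retinoid handling around Lrat, 12 of 13 genes were fitted, with 2 higher, 0 lower and a median of 0.08. Cyp26a1, which degrades retinoic acid, was higher in NZO (1.66) and so was the lipid droplet protein Pnpla3 (1.08, and 2.75 with its second probe), but both overlapped between the strains and neither passed the adjusted p (0.161 and 0.119, limma). The count of 2 higher genes was kept under only 8 of 19 alternatives, and it was 0 with the methods' t-test and without NZO 003 or B6 011, and 1 without NZO 007, NZO 011, B6 009 or B6 015. Rbp4, the carrier of retinol in plasma (0.05), and Aldh1a1, which makes retinoic acid (-0.40), did not pass the thresholds. The retinoic acid receptors Rarg (-0.68) and Rara (-0.59, and -0.19 with its second probe) are named after their values were seen. So is the retinol-oxidising enzyme Rdh10 (-0.62). All missed the limit of 0.7 but did not overlap between the strains, as 10.7% of all fitted probes with NZO lower. The adjusted p of Rarg, Rara and Rdh10 was 0.00544, 0.0276 and 0.0177 (limma).

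No gene passed the thresholds among the 4 fitted genes around Pdgfrb, and their median was -0.26. Pdgfa (-0.07) and Pdgfc (0.25) were the brightest ligands. Pdgfb, the main ligand of Pdgfrb (-0.54), and the sister receptor Pdgfra (-0.45) are named here after their values were seen. For both the strains did not overlap, as for 10.7% of all fitted probes with NZO lower. The adjusted p was 0.0206 and 0.0413 (limma), but the differences did not reach 0.7. Pdgfd was not above background on any NZO array.

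Around Tgfb1 and Ecm1, 10 of 12 genes of ligands and their activation were fitted, with 2 lower and a median of -0.23. Lrrc32, which tethers latent TGF-beta to the cell surface, was at 1.11, 1.41, 1.35 and 1.38 in NZO and 2.73, 2.07, 2.80 and 2.84 in B6. All NZO arrays were well below B6, with a difference of -1.30 ± 0.18 (SE, adjusted p = 0.00211, limma). Ltbp4, which binds latent TGF-beta in the matrix, was lower too (-0.98, and -0.94 with its second probe). Furin, a protease that processes the precursor (-0.02), and Ltbp2 (0.42) did not pass the thresholds. For Ltbp2 each NZO array was above each B6 array, as for 11.3% of all fitted probes. Among 11 fitted receptors and Smads, with a median of -0.16, only Tgfbr2, the receptor subunit that binds the ligand, was lower (-0.90, adjusted p = 0.00595, limma, and -0.62 with its second probe), whereas the co-receptor Eng (-0.03) and the signal transducer Smad4 (0.04) did not pass. With slide as a fixed term Tgfbr2 was at -0.56 and was not called.

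Of 8 fitted genes known to respond to TGF-beta, 4 were lower in NZO and 0 higher, with a median of -0.74. Cyr61, a matricellular protein, was at -1.86, -1.66, -1.26 and -2.43 in NZO and 0.24, 1.44, 0.01 and -0.25 in B6. The difference of -2.16 ± 0.39 (SE, adjusted p = 0.00692, limma) was the most negative of all pathway genes. Id1, an inhibitor of differentiation (-1.73), Pmepa1, a feedback inhibitor of the pathway (-1.11), and the matrix protein gene Tgfbi (-0.79) were lower as well, but Id1 did not pass the adjusted p (0.0513, limma). With normexp Cyr61 was at -1.20, and Pmepa1 (-0.60) was not called. Tgfbi (-0.69) and Id1 were not called with slide as a fixed term, nor was Id1 with the mouse number as a replicate block. Fibronectin, Fn1, the brightest of the list (0.12), and the crosslinking enzyme Loxl2 (-0.44) did not pass. Lox was not above background on all arrays of either strain and was not fitted.

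The 3 fitted receptors and adaptors of reelin (median 0.34) included the largest increase of all pathway lists. Vldlr, the very low density lipoprotein receptor that binds reelin and lipoproteins, was at 0.41, -0.31, 0.59 and 0.86 in NZO and -2.62, -2.71, -2.57 and -2.31 in B6. The strains were far apart, the log2 difference was 2.94 ± 0.24 (SE, limma, adjusted p = 0.00011) and the other fitted probe of the gene gave 3.17. The difference was smaller with normexp (1.63) and in the deposited table (1.90), with the call kept. The adaptors Dab2 (-0.39) and Dab1 (0.34) did not pass the thresholds, and the second reelin receptor Lrp8 was above background on 1 B6 array only.

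In the family of decorin, 1 of 6 fitted small leucine-rich proteoglycans was lower, Lum (-0.71), and the median was -0.40. Bgn (-0.36) and Podn (0.34) did not pass. Of the 9 fitted genes around Timp1 (median -0.17), the membrane-bound collagenase gene Mmp14 (-0.73) and the procollagen peptidase gene Adamts2 (-0.71, and -0.54 with its second probe) were lower, whereas Timp2 (0.18) and Timp3 (-0.04) did not pass. Lum, Mmp14 and Adamts2 lay close to the limit of 0.7, and their calls were kept under 11, 15 and 12 of 19 alternatives. The call of Lum was lost without NZO 007, NZO 011, B6 009, B6 010 or B6 011, that of Mmp14 without NZO 009 or B6 010, and that of Adamts2 without NZO 009, NZO 011, B6 009 or B6 011. With slide as a fixed term Lum (-0.36) and Adamts2 (-0.35) were not called, nor was Mmp14 with normexp (-0.41). Mmp3, Mmp8, Mmp9 and Mmp13 were not above background on any array.

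Fibrillar collagens and the enzymes of their assembly had 3 lower and 1 higher gene among 9 fitted genes, with a median of -0.50. P4ha2, which hydroxylates procollagen (-1.31), the collagen chaperone gene Serpinh1 (-0.84) and Col3a1 (-0.80) were lower, Col5a2 was higher (0.81, but 0.29 with normexp, 0.58 without scaling, 0.27 in the deposited table and 0.36 with slide as a fixed term, each without a call), and Col1a2 (-0.43) and Col1a1 (-0.50) did not pass. Serpinh1 was not called with normexp (-0.64), and Col3a1 was not called with slide as a fixed term (-0.69). Among 13 fitted genes of the activated and contractile state, 6 were lower and 0 higher, with a median of -0.64. The chemokine gene Ccl2 (-1.16), the lectin gene Lgals1 (-0.94), osteopontin, Spp1 (-0.89), and the surface protease gene Fap (-0.87) showed the largest differences, and Fap did not pass the adjusted p (0.0898, limma). Ccl2 was not called with normexp (-0.51) or with slide as a fixed term (-0.59), and Lgals1 and Spp1 also lost their calls with the slide term. Actg2 and S100a6, the latter named after its values were seen, were the other lower genes, and neither passed the adjusted p. The call of Fap was lost without NZO 003 and with normexp (-0.12), in the deposited table (-0.47), with the replicate block (-0.18) and with the methods' t-test, that of Col3a1 without NZO 011 or B6 015, and that of S100a6 without NZO 009, NZO 011, B6 011 or B6 015. Tagln (-0.43) and the brightest probe of Sparc (-0.02) did not pass, and the other fitted probe of Sparc gave -2.84.

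Markers of 10 other cell types or tissues were read beside these genes. Hepatocyte markers had a median of 0.00 with none of 5 called (Alb, Ttr, Apoa1, Cps1 and Tat, from -0.31 to 0.27). Their summed linear level, in units of the 75th percentile of the array, was 3917, 3871, 3854 and 3789 in NZO and 3002, 3766, 3203 and 3652 in B6, with Alb as the brightest gene. Each NZO array was thus above each B6 array, and the ratio of the strain means was 1.13. Sinusoidal endothelial markers had a median of -0.22 with none of 6 called (Stab2, Lyve1, Clec4g, Pecam1, Kdr and Cdh5, from -0.62 to 0.48), and their summed levels overlapped. The probes of Stab2 disagreed, with 0.48 for the brightest and -0.44 and -0.93 for the others, and so did those of Kdr (0.32 and -0.21).

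Kupffer cell markers were lower for 2 of 6 genes, Clec4f (-1.13) and Cd5l (-0.71), and had a median of -0.52, while Adgre1, Cd68, Vsig4 and Timd4 (-0.63 to -0.18) were not called. The call of Cd5l was lost without NZO 009, NZO 011, B6 011 or B6 015. The summed level of the 6 markers was 100.4, 92.8, 85.5 and 88.1 in NZO and 133.5, 140.2, 155.1 and 172.6 in B6, with Cd5l as the brightest gene, and the strains did not overlap (ratio 0.61). Biliary markers were lower for 2 of 4 fitted genes, Sox9 (-1.47) and Krt7 (-1.00), and Krt19 and Cldn7 were not called. With normexp, Sox9 (-0.58) and Krt7 (-0.05) were not called. Krt7 was above background on only 2 NZO arrays, lost its call without NZO 011 and did not pass the adjusted p (0.0909, limma), and the brightest probe of Cldn7 gave -0.46 but the other 0.17. Their summed level was 1.13, 1.31, 1.20 and 0.92 in NZO and 2.25, 1.87, 1.84 and 1.94 in B6 (ratio 0.58), with Cldn7 as the brightest gene and Epcam above background on no NZO array. Marker sums of both cell types were thus lower in NZO, as was Pdgfrb, and their part in the differences of the stellate cell genes was not tested.

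Portal fibroblasts, mesothelium and smooth muscle also express some of the 9 genes. Portal fibroblast markers were lower for 1 of 5 fitted genes, Thy1 (-0.74, not called without NZO 011 or B6 015), whereas Eln, Fbln2, Entpd2 and Cd34 (-0.58 to 0.29) were not called and Gli1 was not above background on any NZO array. Thy1 was also not called with normexp (-0.36), in the deposited table (-0.68) or with slide as a fixed term. The summed level of this list was 3.78, 3.55, 3.40 and 3.02 in NZO and 4.28, 3.82, 5.03 and 5.45 in B6, with Entpd2 as the brightest gene. The strains did not overlap, with 0.04 between NZO 003 and B6 010, and the ratio was 0.74. Wt1 was the only lower gene of 3 fitted mesothelial markers (-1.20, above background on 2 of the 4 NZO arrays), with Msln and Krt8 not called, Krt8 as the brightest, Upk3b not fitted and Lrrn4 not above background on any array. Wt1 was at -0.12 with normexp, -0.41 in the deposited table and -0.76 with the replicate block, each without a call. Its call was also lost with slide as a fixed term, and it was kept under 14 of 19 alternatives. Krt8, which is also a keratin of hepatocytes and bile ducts, made up nearly all of the summed level, so this sum was not read as mesothelium. Actg2 was the only lower gene of 4 fitted smooth muscle markers (-0.73). It did not pass the adjusted p (0.124, limma), was above background on 3 NZO arrays and was called under only 8 of 19 alternatives, with the call lost without NZO 003, NZO 011, B6 010 or B6 011. Myh11, Cnn1 and Smtn were not called, and Lmod1 was not above background on any array. The smooth muscle sum, to which Smtn contributed most, ranged from 2.31 to 3.22 in NZO and from 3.05 to 4.04 in B6 and overlapped. The part of these cells in the values was not tested.

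Platelet markers (Pf4, Ppbp, Gp9, Itga2b and Gp1bb), which are relevant as a source of TGF-beta and PDGF, had a median of -0.51 and none of 5 was called. Their summed level was 1.39, 1.72, 1.48 and 1.46 in NZO and 1.89, 1.79, 2.29 and 2.34 in B6, without overlap, and Pf4 was the brightest. Of 5 leukocyte markers only Itgax was lower (-2.04), with 2 of the 4 NZO arrays not above background, so that the size of its difference is uncertain, whereas Ptprc, Cd3e, Lyz2 and S100a8 (-0.52 to 0.41) were not called. With normexp Itgax was at -0.37 and was not called. The fat cell markers Adipoq, Plin1 and Lep were not above background on any array, and Cidec (0.42) and Fabp4 (-0.30) were not called.

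**Figure D4:**
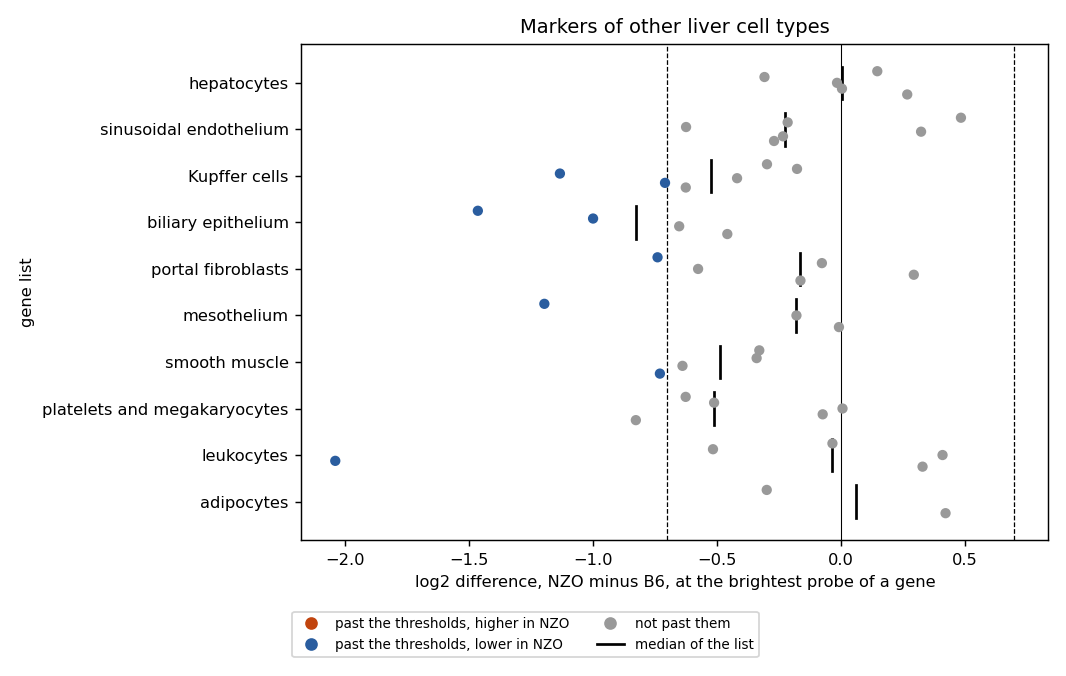
Log2 difference between NZO and B6 (x axis) of the fitted markers of 10 other cell types (y axis), 1 point per gene, with dashed lines at the limit of 0.7 and black bars at the medians. No marker is past the thresholds on the higher side, and the medians of biliary (-0.83), Kupffer cell (-0.52) and platelet (-0.51) markers are the lowest.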

How the data were processed

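RNA of 8 livers was hybridised to 1-colour Agilent arrays, with a separate array for each mouse (4 NZO, 4 B6). For each array the authors deposited the scanner output, made with Agilent Feature Extraction 11.0.1.1 according to the file headers (the submitters' processing notes name 9.1), together with a table of all arrays. In its deposited processed signal, an intensity, the background is subtracted and spatial trends are corrected, and the arrays are not scaled to each other. The values of the deposited table equalled the raw median intensity for 59305 of 59305 spots on each array (tolerance 0.01), so this table was used only as an alternative.

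Control spots and outlier spots were left out, processed signals were log2-transformed and centred on the 75th percentile of their array, and repeated spots were averaged per probe. All probes were kept separate. Probes flagged as well above background in all 4 mice of either strain (27639 of 55681) were fitted with limma 3.58.1 in R 4.3.3 (with the data.table package, version 1.17.8), NZO against B6, without covariates. The methods' thresholds were used, an unadjusted p of 0.05 and a log2 difference of 0.7 in either direction, and Benjamini-Hochberg adjusted p-values were computed over all fitted probes. The fit was checked on simulated data. In the gene lists the brightest probe, by its mean over the 8 arrays, stood for a gene (20156 genes).

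The genes and lists were chosen with earlier results of these data known, so no list was tested. From each pathway list, up to 4 genes past the thresholds with the largest difference and up to 2 of the brightest other genes were to be named, besides all markers of other cell types and the 3 genes most like Lrat. Genes named outside this rule are marked as such, apart from those named only because they were not above background. Some genes of the lists are not reported here. Alternatives were another background correction, other scaling, the deposited table, other filters and slide or scan day as a term. A replicate block for the mouse number, the methods' t-test and omission of each mouse were further ones. The strain difference rests on slide 1 alone with the slide term, and on mouse numbers 009 and 011 alone with the replicate block. Gene positions are those of RefSeq on GRCm38.p6 and probe positions those of the scanner files on mm9. No probe sequence is shown for genes of chromosome 18 or for probes that lie in untranslated regions. Plots were drawn with Python 3.11.15, pandas 2.3.3 and matplotlib 3.10.9.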

Additional observations from a re-analysis of the deposited data

Results flagged for a closer look

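Reln in B6 010 had a log2 level of -0.35, apart from the other B6 arrays at -1.00 to -0.93. This was the only strain group with such a gap among the 20 examined, which are the 10 probes in each of 2 strains, and chance gives about 1 such group in 20. Without B6 010 the difference between NZO and B6 was -0.23 in place of -0.38. The cause was not tested.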

How the results depend on the processing

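Pdgfrb was lower in NZO under all 19 alternatives, from -1.23 to -0.53, and past the thresholds under 18. The exception was the normexp background correction. The adjusted p of Pdgfrb was above 0.05 with the replicate block (0.0768, limma). With slide as a fixed term, which rests on slide 1 with NZO 003 as the only NZO array, Pdgfrb was at -0.90. Normexp with an offset of 50 called 649 probes higher and 614 lower in place of 1426 and 1956, and 0 of the 10 stellate cell and fibrosis probes. Without scaling 916 probes were higher and 3507 lower, and 2 of the 10 probes, Pdgfrb and Timp1 (-0.90), were lower. The deposited table gave 602 higher and 1515 lower probes. Restriction to probes above background on all 8 arrays gave 1103 higher and 1189 lower ones, and this filter left out Timp1. The methods' t-test called 1291 and 1609. With the omission of single mice, 1379 to 1519 probes were higher, 1845 to 2238 lower, and 1 to 2 of the 10 probes were lower, where the second was Timp1 without NZO 007 (-1.05). None of the 10 probes was called higher under any alternative. Only 2 values changed sign, Timp1 with normexp (0.0035) and Ecm1 at the splice junction with slide as a fixed term (0.11). The other 7 probes kept their sign and side of the thresholds throughout. Mouse numbers 009 and 011 occur in both strains, and the samples with the same number did not deviate together (r = -0.26 and -0.00, other pairs -0.35 to 0.35). With the number as a replicate block, 1747 probes were higher and 2423 lower. Of the 10 probes 3 were lower, Pdgfrb (-1.15), Timp1 (-1.44) and Ecm1 at the splice junction (-0.72). These differences rest on NZO 009 and NZO 011 against B6 009 and B6 011 alone. Timp1 was not above background on either of these NZO arrays, so the size of its difference there is uncertain. The causes were not tested. The median raw signal was 1.76 to 2.06 times the local background, which limits dim probes such as Timp1 most, and 4 mice per strain limit the precision.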
